A study of Mus musculus with 2 samples.

Results

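The zinc finger genes *Zfp1* to *Zfp599* were examined in mouse embryonic stem cells (ESCs) that lack G9a. They comprised every gene whose symbol in the platform annotation is Zfp followed by a number no higher than that of *Zfp599* and nothing else, without *Zfp36*, *Zfp42*, *Zfp57* and *Zfp352*. Of the 18194 genes with a probe set of 1 symbol on the array, 168 met this rule. The RefSeq gene table lists 195 such symbols, and the other 27 were not analysed here. The study asked which genes differ in level once G9a is lost, in work on the repression of germ cell genes by MAX. The series holds 1 array of G9a-KO ESCs and 1 array of WT ESCs, hybridized with labelled cRNA from 200 ng of total RNA each. The G9a-KO cells are TT2 cells without exons 26 and 27 of *G9a*, which encode the core of its catalytic SET domain, and WT cells are the parental line TT2, made from a C57BL/6 x CBA F1 embryo. By the design text, the G9a-KO cells arose from TT2 cells with a loxP-flanked allele beside a mutant allele, and both samples carry the same text on 800 nM 4-hydroxytamoxifen for 48 h and 48 h without it, which activates Cre. The methods of the study instead describe an established G9a-/- line on inactivated mouse embryonic fibroblasts, so the knockout is 1 line, and whether WT cells received the drug is not stated.

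Most genes named Zfp encode proteins with fingers of the C2H2 type, short folds held by a zinc ion that read DNA bases. Many also carry a KRAB domain, which recruits TRIM28 (KAP1) and through it the H3K9 methyltransferase SETDB1 and HP1 proteins. This pathway silences retroelements and protects imprinted alleles in ESCs. KRAB zinc finger genes lie in clusters that arose by duplication, and their copies resemble each other in sequence. G9a (gene *Ehmt2*), with its partner GLP, places the H3K9me2 mark. Other genes of the group work without KRAB, among them regulators of pluripotency, RNA-binding proteins and ubiquitin ligases.

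Each level below is the log2 value of the brightest probe set of a gene relative to the 75th percentile of its array, and each difference is G9a-KO minus WT. Each group has 1 array, so a replicate check was not possible, no p-value could be computed, and having so few arrays limits how precise each value is. *Ehmt2* stood at 0.51 in G9a-KO and 2.05 in WT by its brightest probe set (2.90-fold lower), and its other probe set differed by 0.20. The 18 probe sets for RNA spiked in at hybridization differed by -0.16 to 0.21 (SD 0.11). RNA integrity was read from 3' against 5' control probe sets, whose log2 difference was -0.12 in G9a-KO and -0.13 in WT for *Gapdh*, and 0.56 in G9a-KO and 0.53 in WT for *Actb*. All 8 ESC markers lay above the array median on both arrays, with a summed level of 7.85 in G9a-KO and 7.83 in WT on the log2 scale, to which *Dppa5a* contributed most. Of these 8, 3 were more than 1.3-fold lower (*Zfp42*, *Utf1* and *Pou5f1*) and 1 higher (*Dppa5a*), with a median difference of -0.20. Primitive endoderm markers were more than 2-fold higher in G9a-KO in 10 of 10 cases, with a summed level of 6.10 in G9a-KO and 1.86 in WT, where 4 of them lay below the median. Of 10 fibroblast markers, 4 were higher and 0 lower at 1.3-fold, with a summed level of 3.58 in G9a-KO and 2.24 in WT, and *Col1a1*, *Col3a1*, *Thy1*, *Postn*, *Lum* and *Dcn* lay below the median on both arrays. The part of these other cells in the values below was not tested, and fewer cells of a type and less RNA per cell cannot be told apart in bulk RNA.

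The zinc finger genes were mostly lower in G9a-KO. Of the 168 genes, 87 were more than 1.3-fold lower, 9 were more than 1.3-fold higher and 72 were within that fold. Among all 18194 genes, 17.2% were lower and 17.4% higher at the same fold. At 2-fold, 33 of the 168 were lower and 1 was higher, whereas 3.76% of all genes were lower and 4.61% higher. The lower genes thus made up 51.8% of the zinc finger genes at 1.3-fold and 19.6% at 2-fold. The median difference was -0.40 (1.32-fold lower), with quartiles of -0.88 and 0.0068, against a median of 0.036 over all genes. A value below 0 was found for 125 of the 168.

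**Figure D1:**
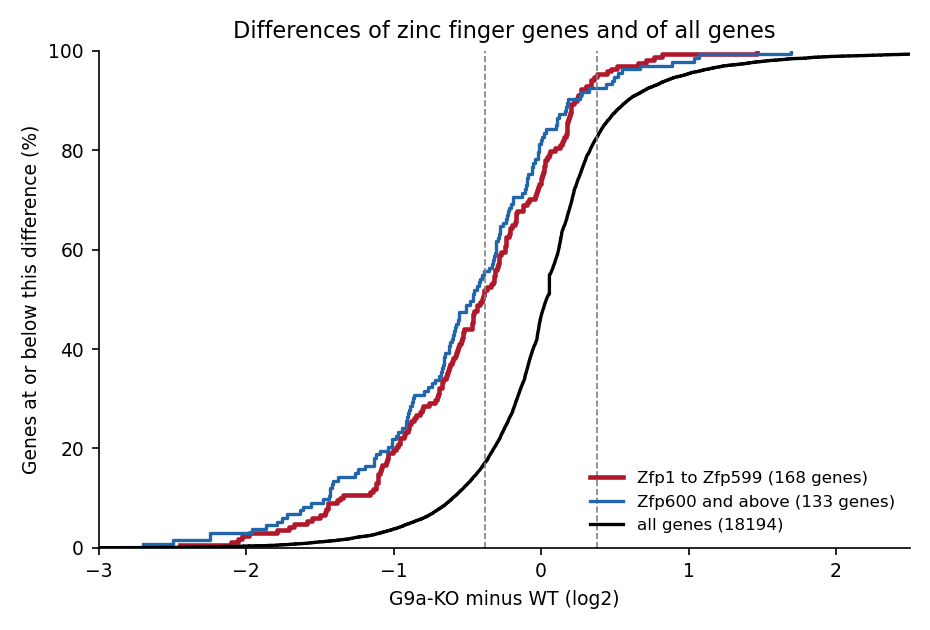
Share of genes (percent, vertical axis) at or below each difference between G9a-KO and WT (log2, horizontal axis) for the 168 genes *Zfp1* to *Zfp599*, the 133 *Zfp* genes with higher numbers and all 18194 genes, with 1 array for each group and the 1.3-fold limits dashed. Both zinc finger curves lie left of the curve of all genes, with medians of -0.40 and -0.46 against 0.036.

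The levels on each array were as follows. The median level of the 168 genes was -1.02 in G9a-KO and -0.40 in WT. Above the 75th percentile of their array lay 55 of them in G9a-KO and 66 in WT, and the genes above it in WT alone numbered 11, those in G9a-KO alone 0. Above the array median (-2.13 in G9a-KO and -2.24 in WT) lay 135 in G9a-KO and 146 in WT. The matching counts over all genes are not given here, so these counts alone do not show whether the zinc finger genes stand out. Across the genes, which are not independent replicates, the levels on both arrays correlated at r = 0.926 for the zinc finger genes and r = 0.970 for all genes. The robust SD of the differences was 0.63 for the zinc finger genes and 0.36 for all genes.

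The zinc finger genes are moderately expressed, so their counts were also set beside genes of like level. When all genes were divided by their mean level into 5 classes of equal size, the middle class held 69 of the 168. There, 62.3% of the zinc finger genes were lower at 1.3-fold, against 23.9% of all genes of the class. In the brightest class the shares were 10 of 19 zinc finger genes (52.6%) and 691 of all 3639 genes. In the dimmest class, with 8 zinc finger genes, 1 was lower. Of the 168 genes, 149 lay above the median on at least 1 array. The 19 that lay below it on both arrays had differences between -0.57 and 0.27, of which 2 passed 1.3-fold, both lower.

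Other zinc finger genes of the array were set beside them, with no test of the difference. *Zfp* genes with numbers above that of *Zfp599* gave 74 lower and 10 higher of 133 at 1.3-fold, with a median of -0.46. Genes named *Zbtb*, *Zscan* or *Zkscan*, a comparison added after the data were seen, gave 27 lower and 7 higher of 59 (median -0.30). *Zfp* genes with a letter after the number, also added later, gave 12 lower and 1 higher of 26 (median -0.26). At the limit set by the rule, *Zfp598* (-0.24) and *Zfp599* (-0.58) stand next to *Zfp605* (-0.68) and *Zfp606* (-0.46) beyond it.

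Genes with several probe sets allow a check within the array. Of the 168 genes, 51 had at least 2 probe sets above the median. All such probe sets of a gene were lower in G9a-KO for 30 genes, all were higher for 5 and they ran both ways for 16. Among all 5371 genes with several bright probe sets, all were lower for 29.8% and all higher for 35.8%. The second brightest probe sets of the 51 genes had a median difference of -0.30, and 24 of them were more than 1.3-fold lower and 3 higher. Probe sets can disagree widely in this family. *Zfp53* differed by -1.09 and 1.37 by its brightest and second probe sets, and *Zfp560* by 0.66 and -1.86.

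**Figure D2:**
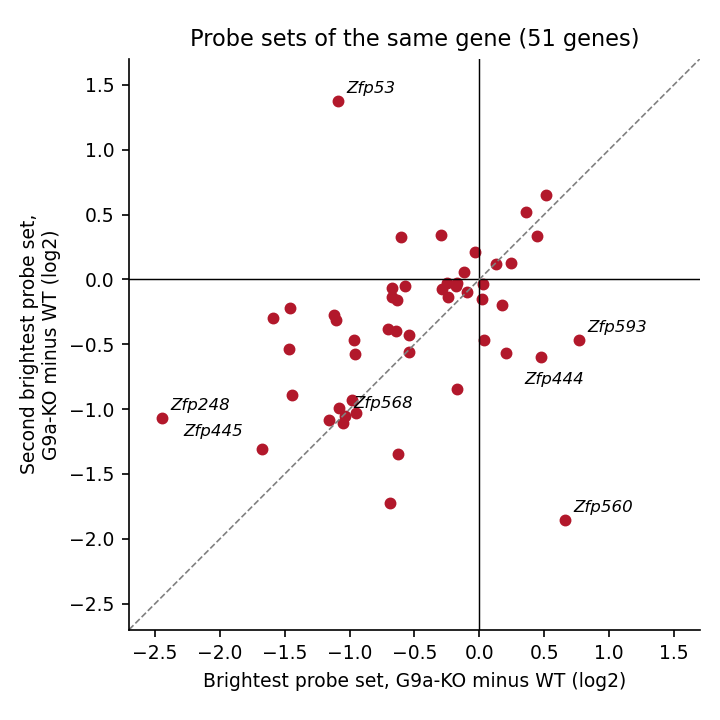
Difference between G9a-KO and WT (log2) by the second brightest probe set (vertical axis) against that by the brightest probe set (horizontal axis) for the 51 zinc finger genes with at least 2 probe sets above the median, 1 point per gene, with equal values on the dashed line. Most points lie in the lower left part of the plot, while *Zfp53*, *Zfp560*, *Zfp593* and *Zfp444* lie where the probe sets oppose each other.

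*Zfp248* had the lowest difference, with all of its bright probe sets in that direction. It stood at -3.38 in G9a-KO and -0.94 in WT (5.46-fold lower). Its second bright probe set gave -1.07, and the mean over all of its probe sets was -0.82. *Zfp287*, which encodes SCAN and KRAB domains, stood at -2.56 in G9a-KO and -0.46 in WT (4.29-fold lower), with a mean of -0.72 over all of its probe sets. Both genes lay below the array median in G9a-KO, so background signal enters these folds and they are inexact. The following genes stayed above the median on both arrays. *Zfp105* stood at -0.81 in G9a-KO and 1.25 in WT (4.17-fold lower), and *Zfp74* at -0.88 in G9a-KO and 1.14 in WT (4.07-fold lower). The single probe set of *Zfp105* can bind several transcripts, so the gene has no value when such probe sets are left out. *Zfp334* had levels of -1.50 in G9a-KO and 0.48 in WT (3.94-fold lower) by a probe set that can bind several transcripts, and its other probe set, below the median on both arrays, gave -0.094. These genes thus lay above the 75th percentile in WT and below it in G9a-KO. *Zfp532*, whose human counterpart is a fusion partner in NUT carcinoma, was at 0.36 in G9a-KO and 2.15 in WT (3.46-fold lower).

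The other genes among the 15 lowest were between 3.28-fold (*Zfp11*) and 2.72-fold (*Zfp62*) lower. *Zfp266* was at 0.49 in G9a-KO and 1.94 in WT, and its other bright probe sets gave -0.84 and -0.22. *Zfp142*, which is tied to a neurodevelopmental disorder in human, was at -1.09 in G9a-KO and 0.37 in WT, with -0.53 by its second bright probe set and a mean of -0.25 over all of its probe sets, within 1.3-fold. The bright probe sets of *Zfp266* and of *Zfp142* thus ran the same way and differed in size. *Zfp11*, *Zfp84*, *Zfp386* and *Zfp27* lay below the median in G9a-KO, so their folds are not exact. Of the 33 genes past 2-fold, this limit touches 7.

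**Figure D3:**
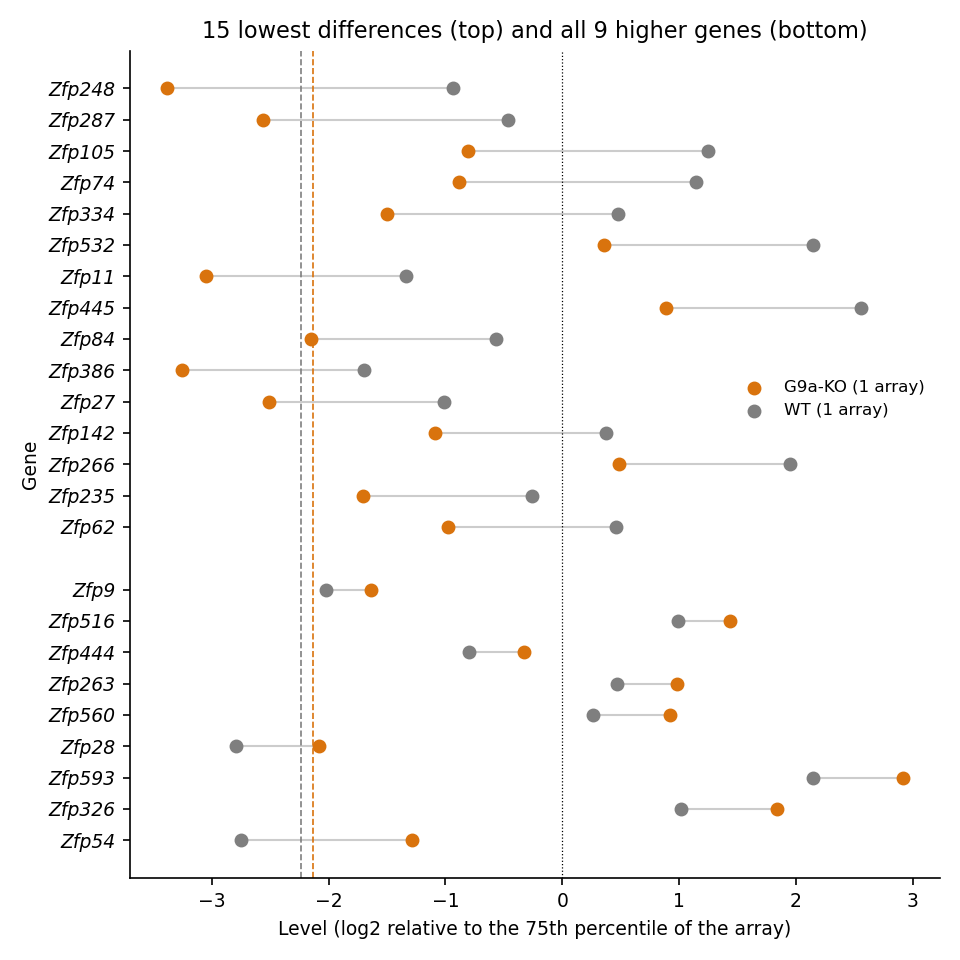
Level (log2, with the 75th percentile of each array at 0, horizontal axis) of the 15 zinc finger genes with the lowest differences and of the 9 that were more than 1.3-fold higher, on the G9a-KO array (orange) and the WT array (grey), 1 point per array. Dashed lines mark the median of each array (-2.13 in G9a-KO and -2.24 in WT), and *Zfp248*, *Zfp287*, *Zfp11*, *Zfp84*, *Zfp386* and *Zfp27* lie left of it in G9a-KO.

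Few zinc finger genes were higher, and all 9 past 1.3-fold are given here, *Zfp560* and *Zfp444* after their values were seen. *Zfp54* led, at -1.29 in G9a-KO and -2.75 in WT (2.76-fold higher). Its WT level lay below the median, and its other probe sets, both below the median on both arrays, differed by -0.11 and -0.044. *Zfp326*, a component of a complex that links transcript elongation to splicing, was at 1.84 in G9a-KO and 1.01 in WT (1.77-fold higher) by its single probe set. *Zfp593*, a factor of ribosome biogenesis, was at 2.92 in G9a-KO and 2.15 in WT (a difference of 0.77), but its other probe set above the median gave -0.47. For *Zfp560* (0.92 in G9a-KO and 0.26 in WT) and *Zfp444* (-0.32 in G9a-KO and -0.80 in WT) the bright probe sets also ran both ways. *Zfp263* stood at 0.98 in G9a-KO and 0.47 in WT, with 0.65 as the difference of its second probe set. *Zfp516*, an activator of brown fat genes, was at 1.43 in G9a-KO and 0.99 in WT (1.36-fold higher, and 0.33 by its second probe set). *Zfp28* was at -2.08 in G9a-KO and -2.79 in WT (1.64-fold higher), below the median in WT, and *Zfp9* was at -1.64 in G9a-KO and -2.02 in WT (a difference of 0.38). The higher genes with more than 1 bright probe set and 1 direction were therefore *Zfp263* and *Zfp516*.

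Among the 8 brightest of the 168 genes, some differed by less than 1.3-fold. *Zfp330*, which encodes a nucleolar protein, was the brightest at 3.91 in G9a-KO and 3.71 in WT. *Zfp207* (BuGZ), a spindle protein, was at 3.24 in G9a-KO and 3.22 in WT, and *Zfp106*, an RNA-binding protein, at 3.08 in G9a-KO and 3.05 in WT. *Zfp277* was at 2.84 in G9a-KO and 2.54 in WT. These 4 genes were within 1.3-fold, although the other bright probe sets of *Zfp106* gave values from -0.47 to 0.65. *Zfp428*, in contrast, was at 1.94 in G9a-KO and 2.98 in WT (2.06-fold lower). The rest of the 8 also passed 1.3-fold by their brightest probe sets and are described elsewhere: *Zfp568* (-1.04), *Zfp110* (-0.55) and *Zfp593* (0.77).

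The 2 listed repressors of imprinted or growth genes were both lower at 1.3-fold, beside 51.8% of the 168 genes and 17.2% of all genes. *Zfp445*, a KRAB protein that maintains imprints, was at 0.88 in G9a-KO and 2.56 in WT (3.19-fold lower), and its other bright probe sets gave -1.31 and -0.55. *Zfp568*, a KRAB protein that represses a placental transcript of *Igf2* in mouse, was at 2.10 in G9a-KO and 3.13 in WT (2.05-fold lower), and its second probe set gave -1.06. Both genes stayed above the 75th percentile on both arrays, and all 5 of their bright probe sets were lower in G9a-KO.

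Of 10 listed stem cell and chromatin regulators, 9 were measured, of which 4 were more than 1.3-fold lower and 0 higher (median -0.17), beside 17.2% lower and 17.4% higher among all genes and 51.8% lower among the 168. *Zfp281*, a regulator of pluripotency, was at 1.38 in G9a-KO and 2.35 in WT (1.95-fold lower, and -0.46 by its second probe set). *Zfp296*, a partner of KLF4 in reprogramming, was at 1.61 in G9a-KO and 2.47 in WT (a difference of -0.86). *Zfp410*, which activates the NuRD gene *Chd4*, was at 0.97 in G9a-KO and 1.50 in WT (1.45-fold lower), and *Zfp219* was 1.38-fold lower. *Zfp462*, which recruits G9a and GLP to chromatin in ESCs, was at 2.39 in G9a-KO and 2.48 in WT, and 2 bright probe sets gave -0.092 and -0.093. With the shift used here, the gene for this G9a partner thus differed by less than the SD of the spiked-in controls (0.106). Its difference was larger with no shift (-0.149), median centring (-0.194) and quantile normalization (-0.113). It was -0.079 with lowess correction, and -0.092 to -0.099 under the alternatives that select or combine probe sets. RNA spiked in at hybridization does not show how a gene varies between cultures, so this SD cannot show that *Zfp462* was unchanged. *Zfp207*, *Zfp217* (0.14), *Zfp148* (-0.17) and *Zfp335* (0.34) were also within 1.3-fold.

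Of 8 listed lineage and neural regulators, 6 were measured, with 3 lower and 1 (*Zfp516*) higher at 1.3-fold, beside the same 17.2% and 17.4% of all genes. *Zfp423*, a partner of EBF factors in neural and fat cell development, was at -1.24 in G9a-KO and -0.35 in WT (1.86-fold lower). *Zfp365* was at -1.36 in G9a-KO and -0.66 in WT (1.63-fold lower), and *Zfp503*, a repressor of the developing striatum, was at -2.79 in G9a-KO and -2.09 in WT, below the median in G9a-KO. *Zfp521* and *Zfp536*, which act in neural differentiation, lay below the median on both arrays.

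All 7 listed genes for RNA, ribosome, ubiquitin and SUMO factors were measured, with 2 lower, 2 higher (*Zfp326* and *Zfp593*) and a median of 0.17, beside 17.2% lower and 17.4% higher among all genes. *Zfp346*, which binds double-stranded RNA, was at 0.60 in G9a-KO and 1.27 in WT (a difference of -0.67, and -0.066 by its second probe set). *Zfp451*, a SUMO ligase, was at 1.45 in G9a-KO and 2.08 in WT (1.55-fold lower), and its other bright probe sets gave -1.34 and -0.56. The ubiquitin ligases *Zfp598*, which marks collided ribosomes (-0.24), and *Zfp91* (0.17, and -0.20 by its second probe set) were within 1.3-fold. Both interactors of the neurotrophin receptor were lower at 1.3-fold by their brightest probe sets, beside 51.8% of the 168 genes. *Zfp110* (NRIF) was at 2.33 in G9a-KO and 2.87 in WT (1.46-fold lower), with -0.56 and -0.0068 by its other bright probe sets. *Zfp369* was at 0.0017 in G9a-KO and 0.47 in WT (1.39-fold lower). Its other probe set, below the median on both arrays, gave -0.027. With probe sets averaged, both genes were within 1.3-fold (*Zfp110* -0.37 and *Zfp369* -0.25).

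Zinc finger genes that lie next to each other were compared by their order in RefSeq (assembly GRCm38.p6). Runs of at least 3 of the 168 genes, with at most 3 other protein-coding genes between neighbours, numbered 11 and held 52 genes. Within runs, 27 of 52 genes were lower and 3 higher at 1.3-fold (median -0.40), and outside them 60 of 116 were lower and 6 higher (median -0.41). The shares of lower genes were 51.9% within runs and 51.7% outside them, beside 17.2% of all genes. The median of a run was below 0 in 9 of the 11 runs. It was above 0 from *Zfp236* to *Zfp407* (0.021) and from *Zfp583* to *Zfp28* (0.34), and lowest from *Zfp397* to *Zfp24* (-1.05). These runs held 3 genes each.

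The longest run, on chromosome 7 from *Zfp84* to *Zfp566*, held 10 genes with a median of -0.90. Of these, 7 were more than 1.3-fold lower, 5 of them more than 2-fold, and 0 were higher. Among all genes 17.2% were lower at 1.3-fold and 3.76% at 2-fold, and among the 168 these shares were 51.8% and 19.6%. *Zfp84* was at -2.15 in G9a-KO and -0.56 in WT (3.01-fold lower, and -0.30 and -2.22 by its other bright probe sets), and *Zfp30* was at -2.07 in G9a-KO and -0.95 in WT (2.17-fold lower). *Zfp27* was at -2.51 in G9a-KO and -1.01 in WT (2.82-fold lower). *Zfp74* and *Zfp568*, described above, are direct neighbours. Between these genes lie members that hardly differed, such as *Zfp420*, at -1.48 in G9a-KO and -1.44 in WT. *Zfp82* (-0.21) and *Zfp14* (-0.32, below the median on both arrays) were within 1.3-fold as well.

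Other runs were mixed, and their counts at 1.3-fold stand beside the same 17.2% of all genes and 51.8% of the 168 that were lower. The run of 9 genes on chromosome 7 from *Zfp180* to *Zfp94* had 5 lower genes and a median of -0.40. Its lowest gene, *Zfp235*, was at -1.70 in G9a-KO and -0.25 in WT (2.73-fold lower), while its direct neighbour *Zfp112* was at -1.80 on both arrays. In the run from *Zfp329* to *Zfp446*, also on chromosome 7, 4 of 5 genes were lower (median -0.55). The run on chromosome 13 from *Zfp455* to *Zfp87* held 6 genes, of which 3 were lower, all by less than 2-fold (median -0.35). On chromosome 17, *Zfp54* was higher as given above, *Zfp51* was at 0.18 in G9a-KO and 0.035 in WT, and *Zfp53* and *Zfp52* were 2.13-fold and 2.15-fold lower. Its members were thus not all on one side, and *Zfp53* differed in direction between its probe sets. *Zfp445* and *Zfp105*, both among the 15 lowest, lie on chromosome 9 with 2 other protein-coding genes between them.

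**Figure D4:**
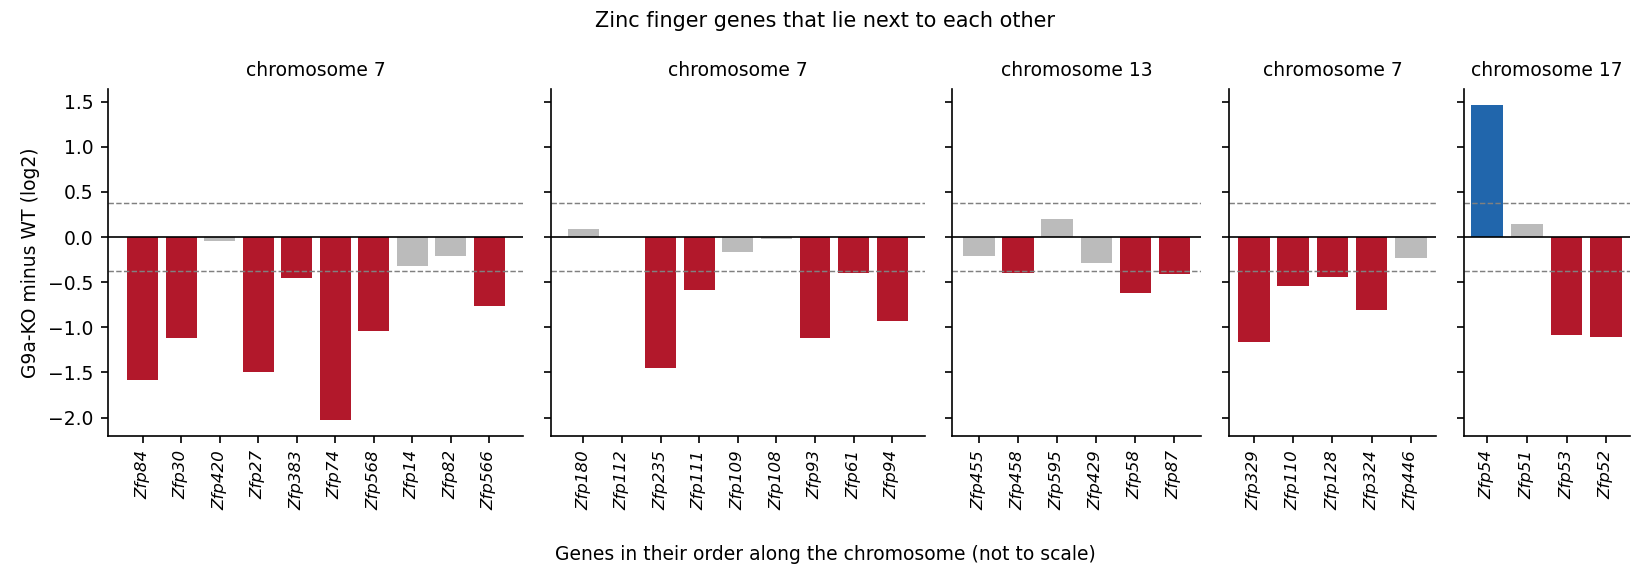
Log2 difference, G9a-KO minus WT (vertical axis), for the genes of the 5 longest runs of neighbouring zinc finger genes, 1 bar per gene in the order along the chromosome (horizontal axis, not to scale), with dashed lines at 1.3-fold. Bars past 1.3-fold are red where lower and blue where higher, and *Zfp74* (-2.03) and *Zfp54* (1.47) are the extremes.

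Promoter windows from RefSeq (GRCm38.p6, 250 bases before to 50 bases after the gene start) were found for 130 of the 168 genes, of which 24 had more than 1 window and were read from the first listed. The windows of the zinc finger genes held a median of 16 CG dinucleotides (1 to 49), against 17 for the 14369 genes of the array with a window. The genes were put in classes of CG count that were chosen after the data were seen, and the differences between the classes were not tested. Of 28 genes with 0 to 9, 18 were more than 1.3-fold lower (median -0.56). Of 61 genes with 10 to 19, 35 were lower (median -0.44), and of 28 with 20 to 29, 14 were (median -0.35). Of 13 genes with 30 or more, 1 was lower (median -0.17). Across the 130 genes, which share the arrays and in part their ancestry, CG count and difference had Spearman's rho = 0.21. Over all genes the order did not appear (rho = -0.11). Lower genes made up 9.10% of all genes with 0 to 9 and 22.3% of those with 10 to 19. They made up 22.7% of those with 20 to 29 and 20.4% of those with 30 or more. The classes were not matched for level, which limits this contrast. The median of all genes with 0 to 9 was 0.056, the value that the shift gives to equal deposited values. Such equal values were found for 703 of all genes and 0 of the zinc finger genes. In the dimmest class by level, 4.15% of all genes were lower. The last class depends on the window. When the window richest in CG stood for each gene, 5 of 18 genes with 30 or more were lower (27.8%), and 14 of 22 with 0 to 9 (63.6%).

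**Figure D5:**
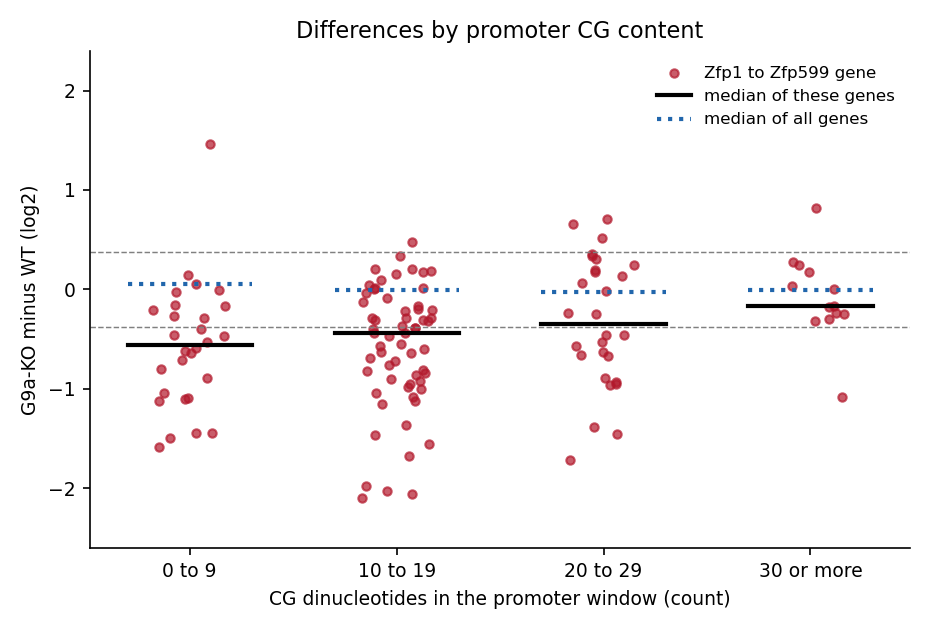
Log2 difference, G9a-KO minus WT (vertical axis), by the number of CG dinucleotides in the promoter window (classes, horizontal axis) for 130 zinc finger genes, 1 point per gene with horizontal jitter, black bars at the class median, dotted bars at the median of all genes of the class and dashed lines at 1.3-fold. The class medians run from -0.56 at 0 to 9 to -0.17 at 30 or more, while those of all genes stay between -0.024 and 0.056.

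As examples in letters, windows are printed for the 3 genes with the fewest CG dinucleotides among the 15 lowest. The 3 with the most among the 15 highest follow, and all come from genes with 1 window only. This choice itself pairs few CG with lower genes, so the windows are not evidence of a link. *Zfp319* (40 CG, difference -1.09) and *Zfp54* (8 CG, 1.47) go the other way. *Zfp341* and *Zfp511*, printed below, were within 1.3-fold. CG dinucleotides are in capitals, and each window runs 5′ to 3′ on the strand of its gene. *Zfp235* (1 CG, difference -1.45) lies at chr7:24132122-24132421, plus strand. *Zfp84* (9 CG, -1.59) lies at chr7:29768302-29768601, plus strand, and *Zfp445* (10 CG, -1.67) at chr9:122865957-122866256, minus strand. *Zfp326* (34 CG, 0.82) lies at chr5:105876318-105876617, *Zfp341* (34 CG, 0.27) at chr2:154613118-154613417 and *Zfp511* (33 CG, 0.25) at chr7:140036141-140036440, all on the plus strand.
Zfp235: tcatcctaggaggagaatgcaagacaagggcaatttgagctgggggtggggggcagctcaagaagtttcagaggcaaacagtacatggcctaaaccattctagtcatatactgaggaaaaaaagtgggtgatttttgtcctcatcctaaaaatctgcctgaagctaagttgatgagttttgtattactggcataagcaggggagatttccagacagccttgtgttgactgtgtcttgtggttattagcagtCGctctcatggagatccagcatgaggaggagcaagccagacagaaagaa
Zfp84: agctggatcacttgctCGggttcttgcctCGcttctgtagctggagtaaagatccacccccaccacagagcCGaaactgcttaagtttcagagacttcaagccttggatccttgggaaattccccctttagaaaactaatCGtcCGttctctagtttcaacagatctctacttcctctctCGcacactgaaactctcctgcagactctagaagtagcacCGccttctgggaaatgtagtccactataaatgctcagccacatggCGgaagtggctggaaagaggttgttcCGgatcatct
Zfp445: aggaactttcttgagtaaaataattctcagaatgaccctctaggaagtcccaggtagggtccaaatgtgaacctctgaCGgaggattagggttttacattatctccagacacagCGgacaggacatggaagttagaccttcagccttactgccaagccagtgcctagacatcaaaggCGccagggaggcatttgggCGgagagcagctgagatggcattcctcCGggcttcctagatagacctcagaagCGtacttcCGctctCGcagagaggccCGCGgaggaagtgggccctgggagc
Zfp326: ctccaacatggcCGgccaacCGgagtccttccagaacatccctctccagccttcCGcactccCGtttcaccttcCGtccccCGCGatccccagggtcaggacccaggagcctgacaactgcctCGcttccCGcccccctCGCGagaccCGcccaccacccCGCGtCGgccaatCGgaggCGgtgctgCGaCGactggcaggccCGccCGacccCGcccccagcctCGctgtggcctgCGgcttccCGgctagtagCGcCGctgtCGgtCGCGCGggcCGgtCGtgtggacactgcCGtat
Zfp341: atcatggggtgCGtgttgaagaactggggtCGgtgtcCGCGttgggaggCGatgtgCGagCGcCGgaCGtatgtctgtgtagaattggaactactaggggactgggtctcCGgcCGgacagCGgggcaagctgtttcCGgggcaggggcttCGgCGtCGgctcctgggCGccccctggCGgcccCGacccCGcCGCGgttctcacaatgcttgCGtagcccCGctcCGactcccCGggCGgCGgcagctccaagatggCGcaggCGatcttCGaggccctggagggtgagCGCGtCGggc
Zfp511: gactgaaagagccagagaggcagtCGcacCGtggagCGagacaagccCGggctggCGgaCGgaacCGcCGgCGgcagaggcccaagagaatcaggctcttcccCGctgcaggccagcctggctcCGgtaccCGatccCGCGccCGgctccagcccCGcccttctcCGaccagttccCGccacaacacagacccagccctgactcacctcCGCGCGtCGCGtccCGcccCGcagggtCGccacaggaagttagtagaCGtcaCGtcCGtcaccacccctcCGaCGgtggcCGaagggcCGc

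Short motifs were searched in the same windows on both strands. All 27025 promoters held a median of 7 CG dinucleotides, against 16 in the windows of the zinc finger genes. The shares below are therefore not matched for CG content, and enrichment of a motif was not tested. Counts of lower genes are at 1.3-fold and stand beside 51.8% of the 168 genes and 17.2% of all genes. No link between a motif and the difference was tested. CCGGAAG, a core bound by ETS factors, was in 26.2% of the 130 windows and in 9.12% of all 27025 promoters. The genes with it had a median difference of -0.36, those without it -0.45, and 17 of the 34 with it were lower at 1.3-fold. TCCCGCC, an E2F core, was in 16.9% against 11.4%, with medians of -0.41 with it and -0.40 without. CACGTG, the E-box that MAX binds with its partners, was in 6.15% against 7.24%, and 6 of the 8 genes with it were lower, beside 62 of the other genes of the 130. TATAAA was in 9.23% against 14.2%, with 8 of 12 genes with it lower, and GATGGCG, a YY1 core, in 5.38% against 3.66%, where 2 of 7 genes were lower. All of these motifs except TATAAA hold a CG dinucleotide, TCCCGCC and the reverse complement of GATGGCG can overlap, and a match is a description of the letters alone.

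The partners through which KRAB proteins silence chromatin were lower in part. Of 20 listed genes, 17 were measured, with 8 lower and 1 higher at 1.3-fold and a median of -0.37, beside 17.2% lower among all genes. *Trim28*, the corepressor bound by KRAB, was at 5.19 in G9a-KO and 5.56 in WT, a difference of -0.37 just inside 1.3-fold, and -0.52 by its second probe set. The methyltransferase *Setdb1* was at 1.06 in G9a-KO and 1.54 in WT (1.40-fold lower) and its partner *Atf7ip* at 0.56 in G9a-KO and 1.43 in WT (1.83-fold lower, and -0.060 by its second probe set). The HP1 gene *Cbx5* was 1.67-fold lower, with -0.30 to -0.56 by its other bright probe sets, and *Hdac2* was 1.47-fold higher (4.17 in G9a-KO and 3.62 in WT). *Dnmt1*, *Morc3* and *Mphosph8* differed by -0.0093, -0.010 and 0.0070 by their brightest probe sets.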

How the data were processed

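The authors deposited log2 values per probe set of an Affymetrix Mouse Genome array. The submitters' processing notes name RMA and R 3.2.1. The median of the deposited log2 values was 5.18 on the G9a-KO array and 5.13 on the WT array. Following the methods of the study, each array was shifted so that its 75th percentile over 45101 probe sets lay at 0. G9a-KO minus WT was then taken with the brightest probe set of a gene (highest mean of both arrays), whereas the methods count a gene when at least 1 of its probe sets passes the fold, which was run as an alternative. Of the probe sets, 34958 had 1 gene symbol and were used, 932 had several and 9211 were unnamed here. All 168 zinc finger genes matched RefSeq by gene ID. With 1 array per group no test was made. The methods of the study use 1.3-fold for this pair, and 2-fold was added. The zinc finger genes, the gene lists and the rules were chosen with earlier results of these data known. Genes were named by rule: the 15 highest and 15 lowest among those above the median with agreeing probe sets, the 8 brightest, the listed roles, runs of neighbours that the text describes and the genes next to *Zfp599*. The steps were tested on simulated differences that were planted alike in every probe set of a gene. The added noise was smaller than the robust SD of the differences over all genes (0.36). Probe sets that disagree were not simulated, so the choice of probe set was not tested. The alternatives were no shift, median centring, quantile normalization, lowess correction (span 0.3), a filter on dim probe sets, leaving out probe sets that can bind several transcripts, and other ways to combine probe sets. Python 3.11.15, pandas 2.3.3 and statsmodels 0.14.6 were used.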

Additional observations from a re-analysis of the deposited data

How the results depend on the processing

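Under each alternative that gives a median (all but the rule of at least 1 probe set), the zinc finger genes had one below 0, from -0.50 (arrays centred on the median) to -0.31 (probe sets averaged per gene), and lower genes outnumbered higher ones at both folds under each alternative. Median centring lowers every difference by 0.10. It gave 99 lower and 6 higher genes at 1.3-fold, beside 22.3% lower and 13.0% higher among all genes. With probe sets averaged per gene, 20 genes were lower and 0 higher at 2-fold. At 1.3-fold, 74 were lower and 8 higher, beside 13.8% lower and 15.7% higher among all genes. With at least 1 probe set past the fold as the rule, 17 genes were higher at 1.3-fold and 2 at 2-fold, beside 99 and 39 lower. The shares of all genes under that rule are not given here. With the probe set of the largest difference for each gene, 95 genes were lower and 13 higher at 1.3-fold, and 38 and 2 at 2-fold. Among all genes this choice gave 21.0% lower and 23.3% higher at 1.3-fold. Of the named genes, *Zfp593* turned to -0.47 without probe sets that can bind several transcripts, and *Zfp53* to 0.14 by the mean over probe sets and 1.37 by the probe set with the largest difference. Of the other values of named genes, 575 stayed and 55 moved, 1 value for each gene and alternative. Without probe sets that can bind several transcripts, *Zfp334* (-0.094), *Zfp84* (-0.30) and *Zfp516* (0.33) came within 1.3-fold and *Zfp142* (-0.53) within 2-fold. With probe sets averaged, the genes that came within 2-fold included *Zfp248* (-0.82), *Zfp287* (-0.72), *Zfp266* (-0.63), *Zfp54* (0.44), *Zfp30* (-0.68) and *Zfp329* (-0.68). Those that came within 1.3-fold included *Zfp142* (-0.25), *Zfp593* (0.15), *Zfp110* (-0.37), *Zfp369* (-0.25), *Zfp410* (-0.30), *Zfp346* (-0.37) and *Zfp383* (-0.17). *Zfp521*, within 1.3-fold by its brightest probe set, was at -0.65 by its probe set with the largest difference. These alternatives use other probe sets of the gene, and the cause beyond that was not tested. The grouping by KRAB, SCAN and finger patterns in the proteins was not run, because no protein sequences were used here. No paired analysis was possible because each group has 1 array. The 19 genes below the median on both arrays can show little difference at this signal.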
